A study of Homo sapiens with 2 samples.

Results

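The 39 genes described here encode the enzymes of glycolysis, the transporters and kinases that set the flow through it, the alpha subunits of the hypoxia-inducible factor (HIF), and other genes that HIF switches on. They were chosen by gene symbol, and a probe was assigned to a symbol through the RefSeq accession that the array design gives it. All 39 had at least 1 probe, and 61 probes were matched to them, out of 41000 different probes on the array. For 59 of the 61, and so for all 39 genes, at least 1 of the RNAs was well above background in both hybridizations, as it was for 16153 of the 17240 named genes on the array. By role they were divided into 17 glycolysis enzymes, 6 genes of transport and flux control, 14 other HIF targets and 2 HIF alpha subunits.

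Glycolysis splits glucose into pyruvate and yields ATP without oxygen, and lactate dehydrogenase then turns pyruvate into lactate, which tumour cells often export even when oxygen is present. The HIF alpha subunits are made all the time and are marked for degradation by prolyl hydroxylases that need oxygen. When oxygen is short they persist, pair with ARNT, and bind hypoxia response elements near genes for glucose uptake, nearly every glycolytic step, acid export, matrix modification and oxygen sensing. Glycolytic genes also respond to other factors, so a HIF target is not a readout of HIF alone.

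SKOV3 is an established human ovarian adenocarcinoma cell line. Clone cl-sh3 had been infected with a lentivirus carrying a RUNX2 short hairpin RNA in the vector pLKO.1-puro, and the mock-transfected control clone carried the same vector with a scramble sequence. Both clones had been selected with puromycin, and each is a single clone, so that a difference due to RUNX2 and a difference between clones cannot be told apart. The authors picked cl-sh3 over another knockdown clone by its stronger effect in their cell assays. Agilent whole genome arrays received labelled cRNA of cl-sh3 in Cy5 and of the control in Cy3 in hybridization 1, and with the dyes reversed in hybridization 2. The hybridizations shared a slide and are a dye swap for which no separate cultures or extractions are named, so they were counted as 1 replicate. No p-value can be given, and what separates the hybridizations is taken as technical error. As a check of the labels, the brightest RUNX2 probe (accession NM_004348) had log2 ratios of cl-sh3 over control of -2.04 in hybridization 1 and -1.30 in hybridization 2, while another, dimmer one for this accession had 0.17 and -0.13 and a probe of NM_001015051 had -0.29 and -0.17. The 8 listed markers of an ovarian carcinoma line were well above background in both clones, with MUC16 at brightness percentile 8.43 as the dimmest. Of these epithelial and tumour markers 6 were higher in cl-sh3 and 1 was lower in both hybridizations, against 30.9% and 28.4% of all named genes. The lower one was ERBB2, with log2 ratios of -0.86 and -0.45, and MUC16 counted as higher at 0.06 and 0.005. The median log2 ratio of the markers was 0.40, and their part in the results below was not tested. The 6 leukocyte and endothelial markers lay between brightness percentiles 3.99 (PECAM1) and 47.0 (CD14), and for none of them did the intensities of the clones separate. All of them except PECAM1 were also well above background in both clones and brighter than MUC16, so detection alone did not set the lists apart.

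The promoters of PFKFB3, ALDOA, P4HA1, ADM and HIF1A are shown first because these genes mark both ends of the results below. PFKFB3 and ALDOA had the highest ratios of their groups, and P4HA1, ADM and HIF1A the lowest ratios of all. Each sequence is the 250 bases before a transcription start, 5′ to 3′, from RefSeq on build GRCh38.p14, and the core of the hypoxia response element (ACGTG or GCGTG, or its complement CACGT or CACGC) is in capitals.
PFKFB3, chr10:6144671-6144920, plus strand: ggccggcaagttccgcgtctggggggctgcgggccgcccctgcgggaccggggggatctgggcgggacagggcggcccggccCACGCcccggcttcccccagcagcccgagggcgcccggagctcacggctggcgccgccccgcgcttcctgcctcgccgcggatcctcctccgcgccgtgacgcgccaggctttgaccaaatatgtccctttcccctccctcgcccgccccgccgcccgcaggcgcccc
ALDOA, chr16:30064029-30064278, plus strand: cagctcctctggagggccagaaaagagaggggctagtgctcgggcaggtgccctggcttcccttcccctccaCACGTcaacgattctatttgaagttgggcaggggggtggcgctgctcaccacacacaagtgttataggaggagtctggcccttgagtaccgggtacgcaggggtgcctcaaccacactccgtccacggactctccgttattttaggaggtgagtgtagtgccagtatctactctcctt
P4HA1, chr10:73096867-73097116, minus strand: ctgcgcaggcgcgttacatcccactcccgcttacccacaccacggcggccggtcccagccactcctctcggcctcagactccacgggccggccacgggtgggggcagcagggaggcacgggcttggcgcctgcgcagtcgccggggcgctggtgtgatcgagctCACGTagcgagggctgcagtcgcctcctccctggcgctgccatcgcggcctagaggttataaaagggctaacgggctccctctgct
ADM, chr11:10304823-10305072, plus strand: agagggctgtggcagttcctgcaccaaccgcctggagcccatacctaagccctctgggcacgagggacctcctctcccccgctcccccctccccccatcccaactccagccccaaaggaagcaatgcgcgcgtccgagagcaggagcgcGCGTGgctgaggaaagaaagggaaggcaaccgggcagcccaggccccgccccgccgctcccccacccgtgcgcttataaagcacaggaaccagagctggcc
HIF1A, chr14:61695263-61695512, plus strand: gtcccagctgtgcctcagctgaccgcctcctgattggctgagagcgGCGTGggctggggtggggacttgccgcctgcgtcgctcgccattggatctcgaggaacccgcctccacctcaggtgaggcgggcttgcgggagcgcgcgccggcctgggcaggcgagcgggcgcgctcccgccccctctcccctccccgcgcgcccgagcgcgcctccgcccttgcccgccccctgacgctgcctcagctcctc
The first base of the core lies 168 bases before the start in PFKFB3, 178 in ALDOA, 86 in P4HA1, 101 in ADM and 204 in HIF1A. The core was thus present in genes at both ends of the range. RefSeq lists further starts for PFKFB3, ALDOA and HIF1A, and the first of each on the strand is shown. The 250 bases before the second start of HIF1A do not hold the core. Promoter windows from 250 bases before to 50 after a start were at hand for 36 of the 39 genes, all except SLC2A3, BNIP3L and NDRG1. The 36 genes had 66 windows, of which 45 (68.2%) held the core on either strand, against 48.4% of all 35116 windows. By role the share was 62.2% of 37 windows for the enzymes and 80.0% of 15 windows for the other HIF targets. The E-box CACGTG, which contains the core ACGTG, was in 12.1% of the members' windows and in 7.26% of all. The RUNX motif (TGTGGT or TGCGGT, both strands) was in 24.2% of the members' windows against 19.6% of all, with 13 of the 37 enzyme windows and 3 of the 15 windows of other HIF targets. Windows of a gene can overlap, and a match of so few letters is a description of the sequence and not a binding site.

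The study asked for a difference of 2-fold or more in both hybridizations, and 0 of the 39 genes met this in either direction. Among all 16153 named genes, each taken by its brightest probe, 0.136% met it as higher in cl-sh3 and 0.514% as lower, so that a count of 0 among 39 is near the background. At the lower fold of 1.5 in both hybridizations, 1 of the 39 was higher and 0 were lower, against 1.6% and 2.6% of all named genes. Of the 39, 19 were higher in cl-sh3 in both hybridizations and 11 were lower in both, against 30.9% and 28.4% of all named genes. The median log2 ratio was 0.20 for the 17 glycolysis enzymes, 0.20 for the 6 genes of transport and flux control, -0.20 for the 14 other HIF targets and -0.58 for the 2 HIF alpha subunits, while that of all named genes was 0.01. When all probes of a gene were averaged, the median of transport and flux control was 0.091. As the arrays measured bulk RNA, fewer cells with a transcript and less of it per cell cannot be told apart.

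**Figure D1:**
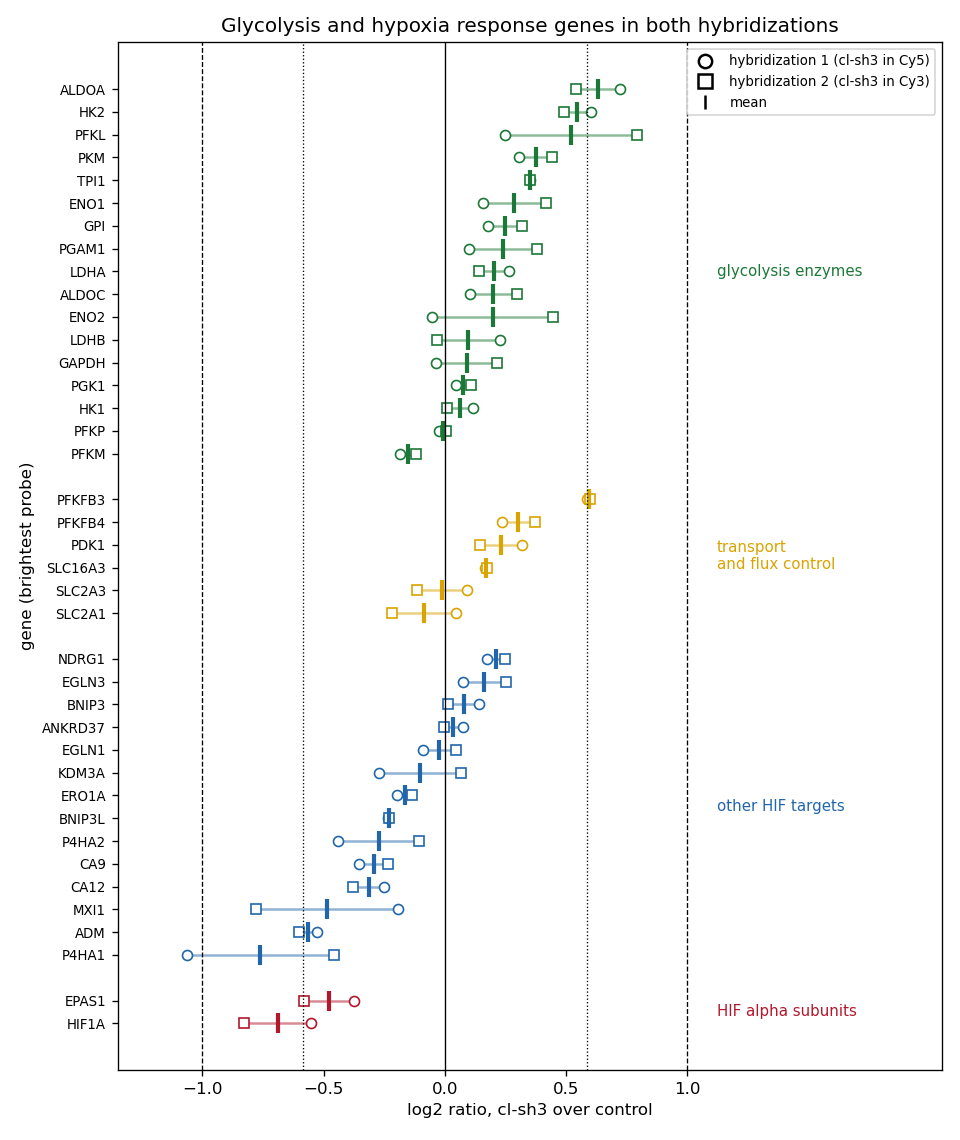
Log2 ratio of cl-sh3 over control (x axis) for each of the 39 genes (y axis), grouped by role and ordered by mean, with circles for hybridization 1, squares for hybridization 2 and a bar for their mean. Dotted lines mark 1.5-fold and dashed lines 2-fold. The enzymes lie mostly to the right of 0 and the other HIF targets mostly to the left, and no gene is past a dashed line in both hybridizations.

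Of the 17 glycolysis enzymes, 12 were higher in cl-sh3 in both hybridizations (70.6%, against 30.9% of all named genes), 1 was lower in both and 4 had opposite signs. The mean log2 ratios ran from -0.15 to 0.63, and the median was 0.16 in hybridization 1 and 0.32 in hybridization 2. In 9 of the 12 the mean was larger than the difference between the hybridizations, as in 3208 of the 4994 named genes higher in both. Over whole sets, these were 9 of the 17 enzymes and 19.9% of all named genes.

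The highest mean ratios among the enzymes were those of ALDOA, HK2 and PFKL. ALDOA, the aldolase that splits fructose 1,6-bisphosphate, had a normalised log2 intensity of 14.01 in hybridization 1 and 13.82 in hybridization 2 for cl-sh3, against 13.29 and 13.28 for the control. These intensities did not overlap between the clones, and the log2 ratios were 0.72 and 0.54, a mean of 0.63 or 1.55-fold. HK2, the hexokinase isoform common in tumours, which phosphorylates glucose on entry, had intensities of 12.21 and 12.25 in cl-sh3 and 11.60 and 11.76 in the control. Its log2 ratios were 0.60 and 0.49, a mean of 0.55 or 1.46-fold, and its dimmer probe had 0.22 and 0.53. PFKL, a phosphofructokinase isoform of the committed step, had log2 ratios of 0.25 and 0.79, and the hybridizations differed by more than its mean of 0.52. Its dimmer probe had 0.39 and 0.61. Across all named genes, 21.8% had both cl-sh3 intensities above both control intensities and 22.4% had both below. Of the 17 enzymes, 9 had both above and 1 had both below.

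Several other enzymes were higher by less. TPI1, which interconverts the triose phosphates, had log2 ratios of 0.35 and 0.35. PKM, the pyruvate kinase that makes the last ATP of the pathway, had 0.30 and 0.44, and its dimmer probe had 0.55 and 0.33. ENO1, the enolase of most tissues, had 0.16 and 0.42, and a further probe of it had 0.09 and 0.48. GPI, the isomerase after hexokinase, was at a mean of 0.25 and the mutase PGAM1 at 0.24, both higher in both hybridizations. GAPDH, often used as a reference gene, had log2 ratios of -0.04 and 0.22, opposite signs with a mean of 0.09.

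Isoforms of the same step had different ratios, although no difference between isoforms can be tested with 1 replicate. HK2 was at 0.55 and HK1 at 0.06. Among the phosphofructokinases, PFKL was at 0.52, the muscle isoform PFKM at -0.15 with log2 ratios of -0.19 and -0.12, and the platelet isoform PFKP at -0.01. PFKM was the only enzyme lower in both hybridizations, by 1.11-fold. ALDOA was at 0.63 and the brain isoform ALDOC at 0.20. The enolases ENO1 and ENO2 were at 0.29 and 0.20, but ENO2 had -0.05 in hybridization 1 and 0.45 in hybridization 2. LDHB, which favours the reaction from lactate to pyruvate, had 0.23 and -0.03.

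For LDHA and PGK1 the sign depended on the probe. The brightest LDHA probe had log2 ratios of 0.26 and 0.14, whereas its other probes of the same accession had 0.03 and -0.48, and -0.92 and -0.08. For PGK1, which makes the first ATP of the pathway, the brightest probe had 0.04 and 0.11, another had -0.87 and -0.42, and the third had -0.16 and -0.23. Neither gene can therefore be given a direction from these arrays. When all probes were averaged in place of taking the brightest, PGK1 was at -0.26 and LDHA at -0.17, and 10 enzymes were higher and 3 lower in both hybridizations. Of the 39 genes, 15 had several kept probes, and in 10 of the 15 the probe means all had 1 sign. In 4 of them, PGK1, LDHA, PDK1 and ERO1A, a probe higher in both hybridizations stood beside 1 that was lower in both.

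**Figure D2:**
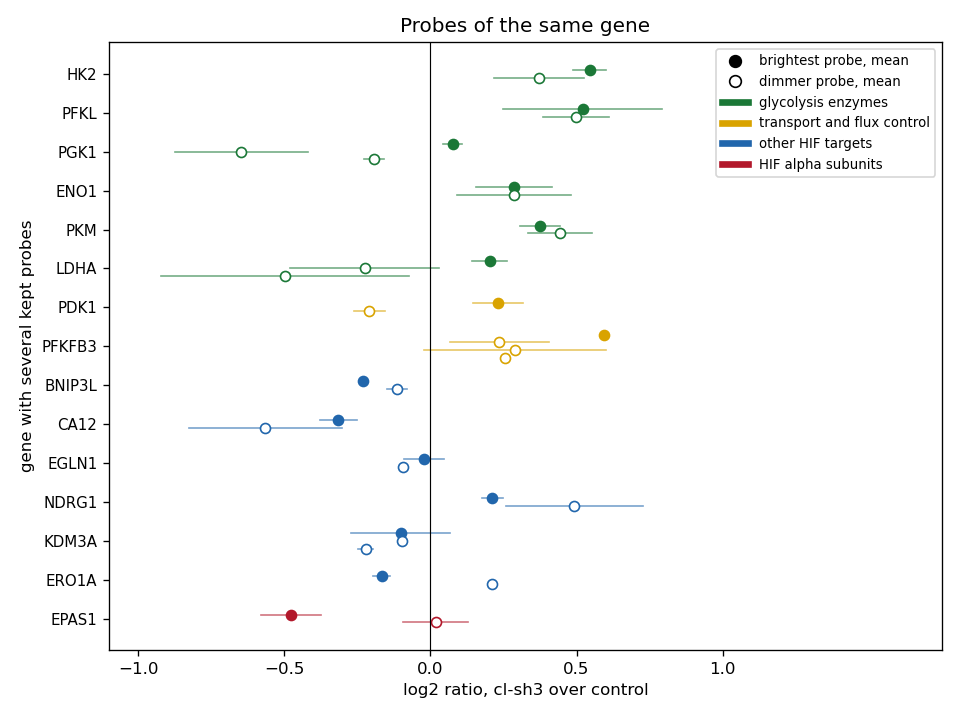
Log2 ratio of cl-sh3 over control (x axis) of every kept probe of the 15 genes with more than 1 (y axis). Filled points are means of the brightest probe, open points means of dimmer probes, and each line joins the hybridizations. Probes of PGK1, LDHA, PDK1, ERO1A and EPAS1 have means on both sides of 0, while those of HK2, PFKL, ENO1, PKM and PFKFB3 have means above 0.

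Of the 6 genes of transport and flux control, 4 were higher in both hybridizations and 0 were lower in both, against 30.9% and 28.4% of all named genes. PFKFB3 was the single gene of the 39 past 1.5-fold in both hybridizations. It makes fructose 2,6-bisphosphate, the strongest activator of phosphofructokinase, and it had normalised log2 intensities of 13.21 and 13.08 in cl-sh3 against 12.62 and 12.48 in the control. Its log2 ratios were 0.59 and 0.60, a mean fold of 1.51, just past the lower fold, whose log2 is 0.58. Its 3 dimmer probes had means between 0.24 and 0.29, and the probe with the highest of these had opposite signs, -0.02 and 0.60. PFKFB3 was no longer past 1.5-fold in both hybridizations without background correction, with the scanner software's own log ratios, with the deposited table or when its probes were averaged. ALDOA and HK2 were the nearest genes outside this limit on the higher side, each past it in hybridization 1.

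PFKFB4, a relative of PFKFB3, had log2 ratios of 0.23 and 0.37. The lactate exporter SLC16A3 had 0.17 in both hybridizations. The glucose transporters, both classical HIF targets, had opposite signs, with 0.05 and -0.22 for SLC2A1 and 0.09 and -0.12 for SLC2A3. PDK1, the kinase that keeps pyruvate out of the mitochondrial citric acid cycle, had 0.32 and 0.14, but its dimmer probe had -0.26 and -0.16. PDK1 can therefore be given no direction either, and the genes of this group that were higher without such a disagreement were PFKFB3, PFKFB4 and SLC16A3.

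The other HIF targets leaned the other way. Of the 14, 8 were lower in cl-sh3 in both hybridizations (57.1%, against 28.4% of all named genes), 3 were higher in both and 3 had opposite signs. The mean was larger than the difference between the hybridizations in 6 of the 8, as in 3119 of the 4590 named genes lower in both. Over whole sets, these were 6 of the 14 other HIF targets and 19.3% of all named genes. The mean log2 ratios ran from -0.76 to 0.21, and the median was -0.21 in hybridization 1 and -0.12 in hybridization 2. Both cl-sh3 intensities lay below both control intensities for 7 of the 14 and above them for 3. Among all named genes these shares were 22.4% and 21.8%.

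The lowest ratio of the 39 genes was that of P4HA1, the catalytic subunit of the enzyme that hydroxylates collagen prolines. Its intensities were 11.39 and 12.16 in cl-sh3 and 12.45 and 12.62 in the control, which did not overlap. The log2 ratios of -1.06 and -0.46 put it past 2-fold in hybridization 1 only, with a mean of -0.76 or 1.70-fold lower. Its relative P4HA2 had -0.44 and -0.11. ADM, the vasodilator peptide adrenomedullin, was lower by nearly the same amount in both hybridizations, with intensities of 13.59 and 13.56 in cl-sh3 against 14.11 and 14.16 in the control and log2 ratios of -0.53 and -0.60, a mean of 1.48-fold lower. MXI1, a MAX partner that opposes MYC, had -0.19 and -0.78, and the hybridizations differed by more than its mean.

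The membrane carbonic anhydrases, which handle the acid that glycolysis produces, were both lower. CA12 had log2 ratios of -0.25 and -0.38, and its dimmer probe -0.83 and -0.30. CA9, at brightness percentile 17.1, had -0.35 and -0.23. Of the mitophagy receptors, BNIP3L was lower by the same amount in both hybridizations with its brightest probe, -0.23 and -0.23. Its dimmer probe had -0.08 and -0.15, whereas BNIP3 had 0.14 and 0.01. Among the oxygen-sensing prolyl hydroxylases, which are HIF targets themselves, EGLN1 had -0.09 and 0.04 and EGLN3 0.07 and 0.25. A dimmer EGLN1 probe was lower in both, with -0.10 and -0.09. ERO1A, the oxidase that drives disulfide formation in the endoplasmic reticulum, had -0.20 and -0.14 with its brightest probe and 0.22 and 0.20 with its dimmer one. NDRG1, a stress-induced gene, had the highest mean of the group, 0.21, with 0.17 and 0.25, and 0.26 and 0.73 for its dimmer probe. The histone demethylase KDM3A and ANKRD37 had means of -0.10 and 0.04 with opposite signs in the hybridizations. Dimmer probes of KDM3A were lower in both, with -0.11 and -0.09, and -0.20 and -0.25.

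Both HIF alpha subunits were lower in cl-sh3. HIF1A, the subunit found in nearly all cells, had normalised log2 intensities of 13.75 and 13.55 in cl-sh3 against 14.30 and 14.38 in the control, with log2 ratios of -0.55 and -0.83 and a mean of 1.61-fold lower. EPAS1, which encodes HIF-2 alpha, had 13.44 and 13.33 against 13.82 and 13.91, with log2 ratios of -0.38 and -0.58 and a mean of 1.39-fold lower. For both genes the cl-sh3 intensities lay below those of the control without overlap, as they did for 22.4% of all named genes. The ratio was further from 0 in hybridization 2 for both. A dimmer EPAS1 probe, at brightness percentile 12.6, had -0.09 and 0.13. HIF1A passed 1.5-fold in hybridization 2 and when both were averaged, though not in hybridization 1 alone, and it stood at percentile 2.88 of the mean ratios of all named genes. HIF is controlled mainly through the stability of its protein, which the arrays do not measure.

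**Figure D3:**
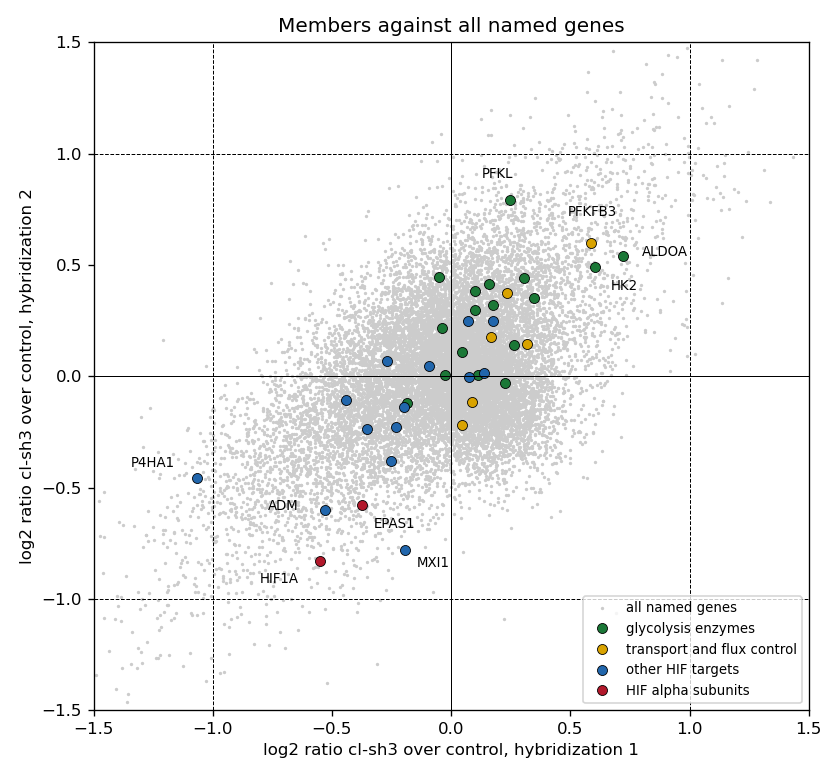
Log2 ratio of cl-sh3 over control in hybridization 1 (x axis) and hybridization 2 (y axis) for all named genes (grey) and the 39 genes (coloured by role), with dashed lines at 2-fold. The axes end at 1.5, which leaves 61 named genes outside. Of the 17 enzymes 12 lie above 0 on both axes, and of the 14 other HIF targets 8 lie below 0 on both.

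Set side by side, the enzymes and the other HIF targets differed in the direction of their medians, 0.20 against -0.20, and this order held in each hybridization alone (0.16 against -0.21, and 0.32 against -0.12). It also held with no normexp offset, without background correction, with median centring, with outlier spots kept, with the software's or the deposited log ratios and with all probes averaged. The alternatives for detection, the fold rule and scaling between arrays left the medians at the same values and do not bear on it. The groups still overlapped, since 4 of the 14 other HIF targets had a mean above the median of all genes and 2 of the 17 enzymes had one below it. The enzymes were measured by brighter probes, with a median brightness percentile of 94.3 against 81.9 for the other HIF targets. Among the 1616 genes of the brightest 10%, 34.3% were higher and 36.4% lower in both hybridizations and the median log2 ratio was -0.01. Within that class, 8 of 11 enzymes were higher and 0 lower in both hybridizations, with a median of 0.24, and 2 of 5 other HIF targets were higher and 3 lower, with a median of -0.17. The 8 enzymes include LDHA and PGK1 and the 3 lower targets include ERO1A, genes whose sign depended on the probe. Below it, 4 of 6 enzymes were higher and 1 lower with a median of 0.20, and 1 of 9 other HIF targets was higher and 5 lower with a median of -0.27. This split by brightness was made after the ratios had been seen.

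**Figure D4:**
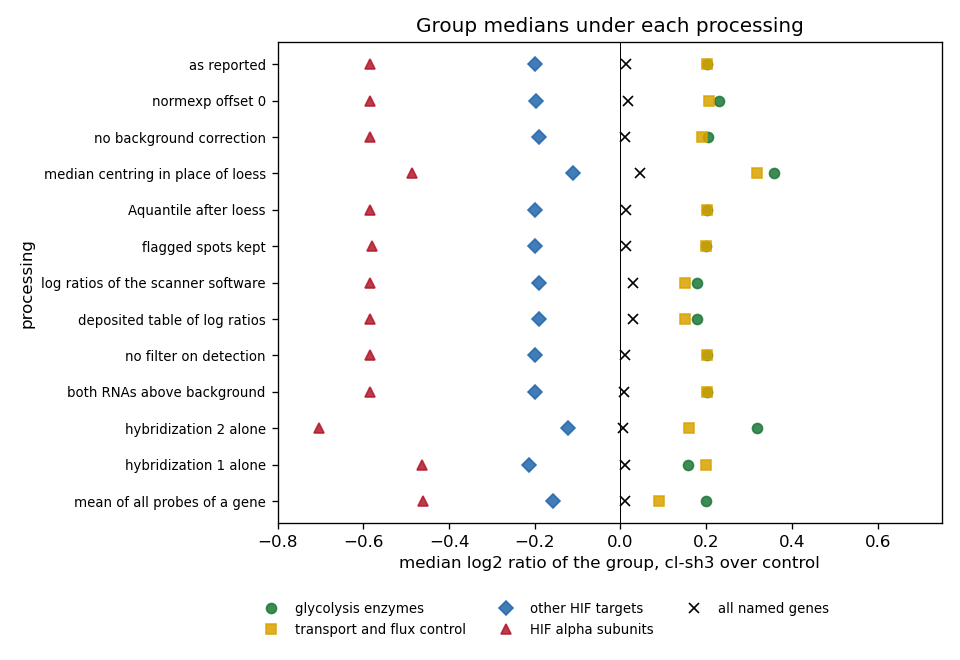
Median log2 ratio of cl-sh3 over control (x axis) of each role group and of all named genes under each processing (y axis). The medians of the enzymes lie between 0.16 and 0.36 and those of the other HIF targets between -0.21 and -0.11, with no crossing of 0. That of transport and flux control lies at 0.091 with the mean of all probes and at 0.32 with median centring.

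Of 31 measured further glycolysis and pyruvate genes, such as the less common isoforms and the subunits of pyruvate dehydrogenase, 9 were higher and 9 lower in both hybridizations. These are 29.0% each way, near the 30.9% higher and 28.4% lower of all named genes. Their median log2 ratio was 0.02, with 0 past 1.5-fold in both. The 7 genes of the pentose phosphate pathway had a median of -0.01, with 2 higher (28.6%) and 1 lower (14.3%) in both hybridizations. Of the 13 genes of glycogen metabolism, 6 were higher (46.2%) and 3 lower (23.1%) in both hybridizations, with a median of 0.15. The 6 measured genes of gluconeogenesis had a median of -0.03. Its mitochondrial PEP carboxykinase PCK2, which is also a target of the stress factor ATF4, was at least 2-fold lower, at -2.27 and -1.85, and a dimmer probe of it had -1.06 and -0.53.

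Further HIF targets were mixed, with 11 of 27 lower and 8 higher in both hybridizations (40.7% and 29.6%, against 28.4% and 30.9% of all named genes) and a median of -0.03. Past 1.5-fold in both hybridizations, 4 of the 27 were lower and 1 was higher, against 2.6% and 1.6% of all named genes. DDIT4, an inhibitor of mTOR signalling that also answers to ATF4, had -1.41 and -1.40, and the lipoprotein lipase inhibitor ANGPTL4, which is also a PPAR target, had -1.30 and -1.29. VEGFA, the main angiogenic ligand, had -0.91 and -0.87, and its other 3 probes had means from -0.92 to -0.25. The secreted glycoprotein STC2 had -1.31 and -0.97, and -1.58 and -1.47 for its dimmer probe. The gene past the fold on the higher side was IGFBP3, a carrier of insulin-like growth factors, with 0.83 and 0.86, although a dimmer probe of it had -0.01 and 0.12. Of the 16 genes of oxygen sensing and HIF cofactors, 6 were higher and 4 lower in both hybridizations with a median of -0.01, and SIAH1, a ubiquitin ligase for prolyl hydroxylases, was at least 2-fold lower at -1.07 and -1.07. The HIF partner ARNT had -0.56 and 0.23, and VHL, which marks HIF alpha for degradation, had -0.51 and -0.24.

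**Figure D5:**
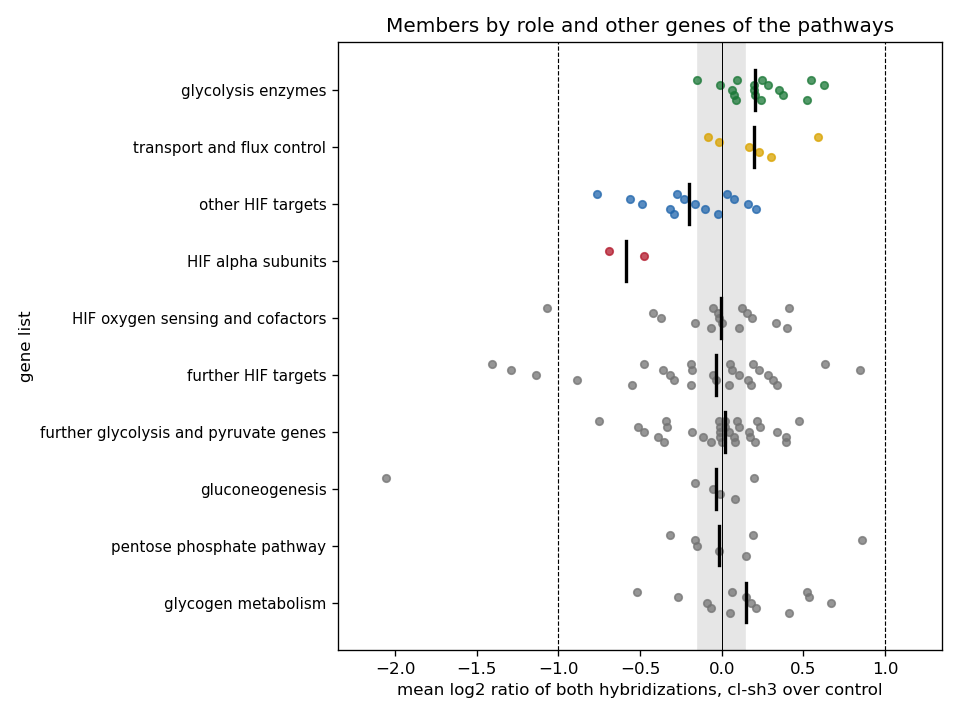
Mean log2 ratio of cl-sh3 over control (x axis) for each measured gene of the 4 role groups (coloured) and of 6 further lists of pathway genes (grey, y axis). Thick bars are list medians, the grey band holds the middle 50% of all named genes and dashed lines mark 2-fold. The medians of the further lists lie between -0.03 and 0.15, and their lowest points are PCK2, DDIT4, ANGPTL4, STC2 and SIAH1.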

How the data were processed

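The RNA of cl-sh3 and of the control clone was hybridized in a dye swap of 1 RNA pair. The authors deposited the spot intensity of each array, with local background and flags, as read by Feature Extraction (10.5.1.1 per the file headers, 8.5.1.1 per the labels), and also its log10 ratio of the red to the green channel. A deposited table of log10 ratios differs from these by at most 0.00500. Median spot signals were between 451 and 902.5, between 77.3% and 93.9% of the spots per channel were well above background, and no spot was saturated. The number of arrays limits the precision.

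Here limma 3.58.1 (R 4.3.3) was run on the median intensities, with normexp background correction at an offset of 50, which shrinks the ratios of dim probes. Control spots were dropped next, as were 153 spots on array 1 and 144 on array 2 that carried outlier flags, and loess was applied within each array. Replicate spots were averaged, and every ratio was expressed as log2 with the control as denominator. Intensities of single RNAs were scaled between arrays with Aquantile. A probe was kept when, in each hybridization, the same RNA exceeded background in at least 50% of its spots. A gene was represented by its brightest kept probe, and brightness percentiles are taken over all named genes. Symbols came from a RefSeq table of GRCh38.p14, which held 18023 of 19228 RefSeq accessions, and NM_004348 was named through the study's own gene list. The arrays were annotated on hg18, so coordinates are given for promoters only, on GRCh38.p14.

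The members and gene lists were chosen with earlier results of these data known. Genes are named by a rule: members past 1.5-fold, the 3 highest and lowest of each role group, isoform pairs, members whose probes disagree, and listed pathway genes past 1.5-fold. Beside RUNX2 and the cell markers, TPI1, PKM, GAPDH, GPI, PGAM1, ANKRD37, KDM3A, ARNT and VHL are named outside it. Of the genes this rule names, 1 is not reported here. Protein sequences were not used here. The normalization and the 2-fold rule were tested on simulated data, with changes larger than 2-fold in bright probes only. The 1.5-fold rule and smaller ratios were not tested in this way. The alternatives are given in the closing section. The remaining steps used Python 3.11.15, with pandas 2.3.3, numpy 2.4.6 and, for plots, matplotlib 3.10.9.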

Additional observations from a re-analysis of the deposited data

How the results depend on the processing

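With 1 replicate, the alternatives show how far the values depend on processing and not how they would vary between clones. The count of members at least 2-fold higher was 0 under every setting, and 1 member, P4HA1, was at least 2-fold lower in hybridization 1 alone, so that the range of that count over the single hybridizations was 0 to 1. At 1.5-fold, 1 member was higher and 0 lower as reported. The number higher was 0 without background correction, with the scanner software's own log ratios, with the deposited table and with the mean of all probes, 2 with median centring in place of loess (ALDOA joined PFKFB3) and with the mean of both hybridizations past the fold, and 2 to 3 in single hybridizations. The number lower was 2 (HIF1A and P4HA1) with the mean of both past the fold and 1 to 3 in single hybridizations. Enzymes lower in both numbered 3 with the mean of all probes and 2 with the sign of the mean, with 2 to 4 lower in single hybridizations. Other HIF targets higher numbered 4 to 5 in single hybridizations. With median centring, the median of the enzymes was 0.36, that of transport and flux control 0.32 and that of the other HIF targets -0.11, while that of all genes was 0.05. The median of transport and flux control was 0.15 with the software's log ratios, 0.15 with the deposited table and 0.091 with the mean of all probes. In single hybridizations the medians ranged from 0.16 to 0.32 for the enzymes, from 0.16 to 0.20 for transport and flux control from -0.21 to -0.12 for the other HIF targets and from -0.70 to -0.46 for the HIF alpha subunits. With the brightest 10% of genes left out, an alternative chosen after seeing the data, 4 enzymes and 1 other HIF target were higher and 5 other HIF targets lower because fewer genes remained, and the medians were 0.27 for transport and flux control and -0.27 for the other HIF targets. Both HIF alpha subunits lie in that class and gave no value. Of the single members, PFKP, SLC2A1 and EGLN1 changed sign with median centring, EGLN1 with the software's log ratios and with the deposited table, and PGK1, LDHA and ERO1A with the mean of all probes. The cause of these shifts was not tested. No paired analysis was possible because the hybridizations are 1 replicate.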
